A study of Mus musculus with 8 samples.

Results

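The replication-dependent histone genes were taken as the protein-coding genes of the GENCODE M21 annotation whose symbols begin with Hist1h, Hist2h, Hist3h or Hist4h. The rule gave 67 genes of 21938 protein-coding genes in all, namely 6 genes for the linker histone H1, 18 for H2A, 18 for H2B, 12 for H3 and 13 for H4. Open chromatin was profiled in hepatocytes of C57BL/6 mice on normal diet with bulk ATAC-Seq, an assay that marks DNA accessible to a transposase. All mice were 10 to 12 weeks old, and hepatocytes were obtained by collagenase perfusion of undamaged liver (0 h) and of regenerating liver, taken 48, 72 or 96 h after a part of the organ had been removed by partial hepatectomy (PHx). Each of the 4 time points had 2 libraries, and the labels do not tie a library to a mouse. The study's text describes bulk libraries of undamaged and early regenerating liver as biological replicates from separate hepatocyte preparations. Its methods have several mice killed at each time for hepatocyte isolation and call replicates independent, but neither they nor the labels say which library came from which mouse. The p-values measure only the spread between these libraries. For each library the deposited data were a list of peaks with no read counts, so the depth behind a value is unknown. Each list held between 105206 and 154577 distinct intervals, which were ranked by their −log10 p. The percentile of an interval is its place in that ranking, with values near 100 for the strongest intervals of a list and 0 given to a gene with no interval. An interval within 1 kb of any transcription start site (TSS) of a gene was taken as its promoter interval, the strongest where there were several. In a bulk sample, fewer cells with an open promoter and a less open promoter in each cell cannot be told apart.

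Of 8 promoters chosen as hepatocyte markers, 5 had an interval in every library, against 1 of 4 for leukocytes and Kupffer cells, 1 of 4 for endothelium, 1 of 3 for stellate cells and 2 of 3 for bile ducts. The promoters of Ptprc (leukocytes), Stab2 (sinusoidal endothelium) and Krt19 (bile ducts) had none in any library. Those of Epcam (bile ducts) and Lrat (stellate cells) were among the 50000 strongest intervals of all 8 libraries, as was 1 of the 8 hepatocyte markers, Hnf4a. The promoter of Alb, the albumin gene, was listed in 3 libraries. The part of other liver cells in the values below was not tested.

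Histones are the proteins around which DNA is wound: an octamer of H2A, H2B, H3 and H4 forms the nucleosome core and H1 binds the linker. Their replication-dependent genes lie in clusters, are transcribed mainly in S phase, lack introns in most cases, and give mRNAs that end in a conserved stem-loop instead of a poly(A) tail. The stem-loop is bound by SLBP, and transcription is promoted by NPAT, which gathers with the clusters in nuclear histone locus bodies. Hepatocytes, which rarely divide in the undamaged liver, enter the cell cycle after PHx.

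The 67 genes fell into 7 loci on GRCm38 (mm10). The Hist1 genes lay on chromosome 13 in 4 blocks: 18 genes at chr13:21714763-21838530, 5 at chr13:22034164-22044676, 29 at chr13:23530050-23765406, and the pair Hist1h2ba and Hist1h2aa at chr13:23932773-23935851. The 10 Hist2 genes lay at chr3:96218865-96271132, Hist3h2ba and Hist3h2a at chr11:58947920-58957830, and Hist4h4 at chr6:136800553-136805415. As a check of the label, the histone stem-loop was looked for on the strand of the gene in the 300 bases after each stop codon. It was found for 65 of 67 members, 22 to 59 bases after the stop codon, and for 0.359% of all protein-coding genes with an annotated stop. Hist2h2be and Hist1h2an had no match. The 16 bases of the 3 commonest forms, of 8 in all, show how uniform this element is. The first stood in 41 genes of the classes H1, H2A, H2B and H3, the next in 9 of the same classes, and the third in 8 H4 genes. Capitals mark the loop between the 2 arms of the stem.
H1 and core form: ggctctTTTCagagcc
second form: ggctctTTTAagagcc
H4 form: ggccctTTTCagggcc

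Promoter intervals were common but weak. Of the 67 genes, 47 (70.1%) had a promoter interval in all 8 lists, against 60.3% of all protein-coding genes, and 9 (13.4%) had none in any list, against 25.1%. Only the strongest 50000 intervals of each list were kept where presence was compared, so that list length did not set the count. On this scale 18 members (26.9%) were kept in every one of the 8 libraries, against 49.4% of all protein-coding genes. Without the second 72 h library this count was 27 over the remaining 7 libraries, since that library held kept intervals at 25 members, the fewest of any, while the other libraries held 30 to 43. Within single libraries the kept share of members lay above that of all genes in 3, with 58.2% and 62.7% at 0 h and 64.2% in the second 96 h library. It lay below in the other 5, with 50.7% and 53.7% at 48 h, 49.3% and 37.3% at 72 h and 44.8% in the first 96 h library, while all genes held between 56.1% and 57.6%.

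**Figure D1:**
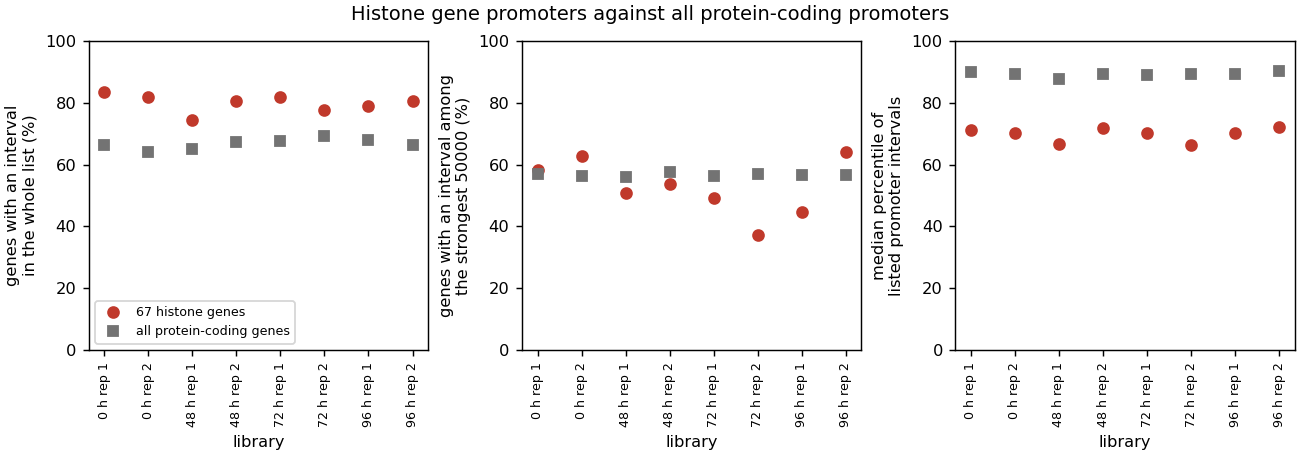
For each of the 8 libraries (x axis), the share of the 67 histone genes (red) and of all protein-coding genes (grey) with a promoter interval in the whole list, the share with one among the strongest 50000, and the median percentile of the listed intervals. The histone genes were listed more often in every library, and their listed intervals had medians of 66.4 to 72.3 against 87.8 to 90.3.

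The listed members had median percentiles of 66.4 to 72.3 in the 8 libraries, below the 87.8 to 90.3 of all listed protein-coding promoters in every library. Their median fold enrichment over local background was 4.44 to 6.87, against 7.76 to 11.1, and their intervals were narrower, with median widths of 387 to 560 bp against 694 to 835 bp. The summit lay within 250 bases of the gene's nearest TSS for 61.8% of the members' 429 listed intervals and for 74.1% over all genes.

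**Figure D2:**
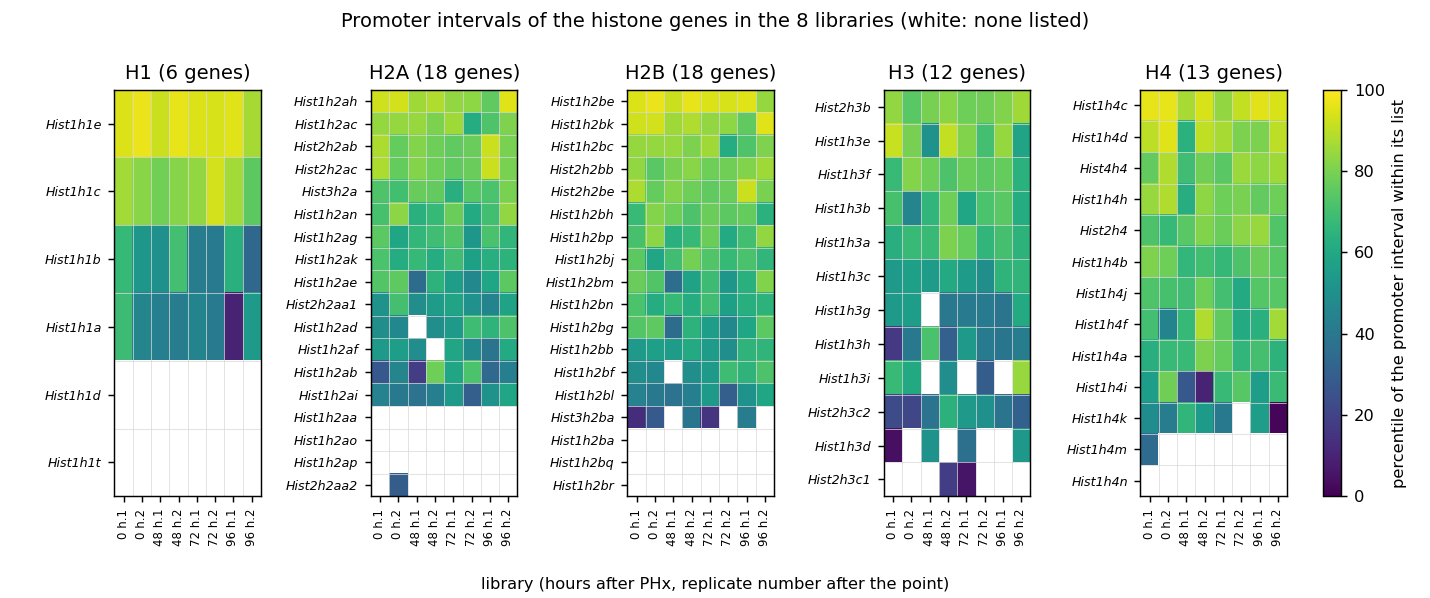
Percentile of the strongest promoter interval (colour, 0 to 100) of each of the 67 histone genes (rows, by class) in each of the 8 libraries (columns); white marks a gene with no interval. Hist1h1e and Hist1h4c lead their classes, and 9 rows are white throughout.

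Of the linker histone genes, Hist1h1e and Hist1h1c had the strongest promoter intervals. Hist1h1e (chr13:23620629-23622558) had percentiles of 94.8 and 96.9 (0 h), 91.9 and 96.3 (48 h), 94.9 and 93.9 (72 h) and 95.0 and 86.5 at 96 h. Its median of 94.9 was the highest of the members, although Hist1h4c lay above it in 3 libraries, the first 0 h library and both 96 h libraries. Hist1h2be (chr13:23583670-23621124), an H2B gene annotated with a distant start beside Hist1h1e, took the same percentiles in 7 libraries and 84.2 in the second 96 h library, so its median of 94.9 was that of the Hist1h1e promoter. A weaker region inside Hist1h2be (chr13:23584977-23585362) had a median percentile of 53.7. Hist1h1c (chr13:23738808-23740367) ranged from 74.7 to 93.3. Hist1h1b (median 51.6) and Hist1h1a (median 44.0) were listed in all 8 libraries but lay mostly below the kept intervals, which held them in 3 libraries and 1 library.

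Hist1h1d and Hist1h1t had no promoter interval in any list. Hist1h1t encodes the testis-specific linker histone. For Hist1h1d the annotated GENCODE start was at position 23553262, and an interval at chr13:23554900-23556724 inside the gene was listed in all 8 libraries with a median percentile of 73.5. This interval covered the RefSeq start, so the absence belongs to the annotation used. Adding the RefSeq starts, an alternative chosen after the data were seen, left the count of genes with a kept interval in all 8 libraries at 18.

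The upstream 250 bases of Hist1h1e are shown as the promoter with the highest median, read 5′ to 3′ on the strand of the gene up to its RefSeq start (chr13:23622559-23622808, minus strand). Capitals mark the H1 box AAACACA, the CCAAT box and the TATA box TATAAA, in this order.
Hist1h1e: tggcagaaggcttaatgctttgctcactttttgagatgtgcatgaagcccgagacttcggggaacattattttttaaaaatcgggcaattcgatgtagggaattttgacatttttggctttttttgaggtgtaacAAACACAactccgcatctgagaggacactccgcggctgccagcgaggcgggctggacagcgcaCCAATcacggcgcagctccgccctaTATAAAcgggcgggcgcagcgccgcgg
The H1 box is an element named for its place in H1 promoters, and it was found on either strand in 5 of 6 H1 windows of 300 bases (250 before to 50 after the RefSeq start) and in 7.18% of all 32851 promoter windows. RefSeq windows were at hand for 62 of 67 members, Hist1h2be having 2. CCAAT stood in all 51 windows of the H1, H2A, H2B and H3 genes and in 3 of 12 H4 windows, against 37.4% of all windows. TATAAA stood in 35 of 63 member windows and in 13.6% of all windows. The octamer ATTTGCAT stood in 14 of 63, of which 7 were H2A and 7 H2B windows, and in 1.74% of all windows. These matches overlap in windows that 2 divergent genes share.

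Most H2A and H2B genes stood in divergent pairs, so that 1 interval served both. The 67 genes held 13 head-to-head pairs, of which 12 joined an H2A with an H2B gene, with annotated starts 176 to 660 bases apart. Both genes of a pair had the same strongest interval in all 8 libraries in 8 pairs, and neither was listed in any library in 3. In the first 0 h library, for example, 56 listed members rested on 40 distinct intervals, so members are not independent of each other. The strongest pair was Hist1h2ah and Hist1h2bk, with a shared interval at percentiles of 92.8 and 93.1 (0 h), 85.8 and 88.0 (48 h), 83.6 and 83.2 (72 h), and 75.5 and 95.3 at 96 h. The 96 h libraries lay on either side of the other 6.

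The 177 bases between the RefSeq starts of that pair (chr13:22035644-22035820) are shown beside those of 2 pairs that had no interval in any library, the testis pair Hist1h2ba and Hist1h2aa (chr13:23934157-23934436) and Hist1h2ap and Hist1h2br (chr13:21833476-21833742). All are given on the plus strand, from the start of the minus-strand gene to that of the plus-strand gene. Capitals mark CCAAT, the octamer, TATAAA and AAACACA on either strand.
Hist1h2ah and Hist1h2bk: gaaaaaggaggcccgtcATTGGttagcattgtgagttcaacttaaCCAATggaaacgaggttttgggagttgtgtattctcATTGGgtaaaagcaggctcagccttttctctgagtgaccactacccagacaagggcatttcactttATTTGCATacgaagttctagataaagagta
Hist1h2ba and Hist1h2aa: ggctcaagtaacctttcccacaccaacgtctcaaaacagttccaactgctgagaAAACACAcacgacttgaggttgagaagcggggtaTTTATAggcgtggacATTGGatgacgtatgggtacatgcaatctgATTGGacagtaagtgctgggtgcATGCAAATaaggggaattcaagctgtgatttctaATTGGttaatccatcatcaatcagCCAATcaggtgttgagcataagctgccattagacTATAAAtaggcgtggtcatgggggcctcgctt
Hist1h2ap and Hist1h2br: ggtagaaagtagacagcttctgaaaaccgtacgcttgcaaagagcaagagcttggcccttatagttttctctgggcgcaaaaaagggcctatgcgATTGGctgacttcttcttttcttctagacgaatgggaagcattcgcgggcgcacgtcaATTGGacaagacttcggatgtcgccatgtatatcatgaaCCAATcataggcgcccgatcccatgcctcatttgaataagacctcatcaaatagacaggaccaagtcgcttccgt
The unlisted promoters held these elements as well. The strongest pair had 3 CCAAT boxes and 1 octamer, the testis pair 4 CCAAT boxes, 1 octamer and 2 TATA boxes, and Hist1h2ap and Hist1h2br 3 CCAAT boxes. In the 10 pairs with RefSeq windows for both genes, each intergenic stretch held at least 1 CCAAT box and 8 held 3 or more.

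After this pair the highest H2A gene was Hist1h2ac (chr13:23681467-23683948), which shared its interval with Hist1h2bc and had a median of 82.5. Hist2h2aa2 was listed in 1 library. Hist1h2ao, Hist1h2ap and the testis gene Hist1h2aa were listed in none, nor were the H2B genes Hist1h2bq, Hist1h2br and Hist1h2ba. Of the pair on chromosome 11, Hist3h2a (chr11:58954685-58956830) was listed in all 8 libraries at percentiles of 63.1 to 79.9, with an interval that also lay at the start of Trim17. Hist3h2ba (chr11:58948920-58949533) was listed in 5, at 13.1 to 42.3.

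For some unlisted genes the sequence itself was repeated. Hist1h2bq and Hist1h2ao lay in a 10.5-kb stretch (chr13:21801258-21811780) that recurred base for base, inverted, at chr13:21832162-21842684 with Hist1h2ap and Hist1h2br. The 167 bases between the RefSeq starts of Hist1h2bq and Hist1h2ao were all contained in the sequence of Hist1h2ap and Hist1h2br shown above, on the other strand. All 32-base words within 1 kb of these 4 gene starts occurred again in the genome, as did 95.8% of those around Hist1h4m and 95.7% around Hist1h4n, which lay at the inner ends of the copies. Of these 6 genes, Hist1h4m was listed in 1 library and the others in none. Over all members a median of 24.5% of such words were repeated, against 1.80% for the 784 other protein-coding genes of chromosome 13.

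**Figure D3:**
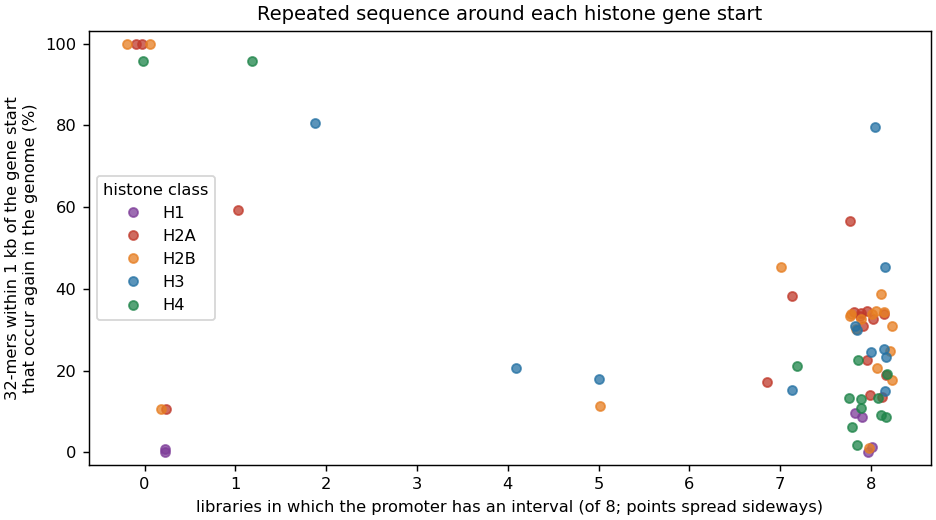
Share of 32-base words within 1 kb of each gene start that occur again in the genome (y axis, percent) against the number of libraries with a promoter interval (x axis, 0 to 8), with 1 point for each of the 67 histone genes, coloured by class. The 10 genes above 50% were mostly unlisted or rarely listed, while the other unlisted genes, Hist1h1d, Hist1h1t, Hist1h2ba and Hist1h2aa, lay below 11%.

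Of the 10 members with more than 50% repeated words, 5 were listed in no library, 3 in 1 to 7 and 2 in all 8. The last were Hist2h3c2 (79.6%) and Hist2h2aa1 (56.6%), both in the Hist2 locus. Hist1h2ba and Hist1h2aa had 10.7% repeated words, Hist1h1d 0.812% and Hist1h1t none. How the authors' mapping placed reads with more than 1 match was not tested, since the lists hold no reads.

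Among the H3 genes, the shared interval of Hist2h3b (chr3:96268654-96269141) and Hist2h2bb led, at percentiles of 74.4 to 85.6. Hist1h3e (chr13:23561534-23562369) had nearly the same median of 80.2 but ranged from 51.3 to 91.7. Its replicates at 48 h, 51.3 and 90.7, spanned almost that whole range. Hist2h3c1 was listed in 2 libraries and Hist1h3d in 4.

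The H4 genes had the highest class median, 71.6, against 48.4 for H3, 47.8 for H1, 57.5 for H2A and 64.9 for H2B, with unlisted genes counted as 0. Of 13 H4 genes 6 had a kept interval in all 8 libraries. Hist1h4c (chr13:23697635-23698454) led with percentiles of 96.3 and 96.2 (0 h), 86.7 and 93.8 (48 h), 83.8 and 90.7 (72 h), and 95.6 and 93.8 at 96 h. It was followed by Hist1h4d (median 88.5, chr13:23581598-23582735). Hist4h4 (chr6:136801553-136804415), the single gene of its locus, ranged from 69.2 to 88.0 and was kept in all 8 libraries. The 250 bases before the RefSeq start of Hist1h4c (chr13:23698459-23698708, minus strand) are shown as the strongest H4 promoter, with its 2 CCAAT boxes in capitals.
Hist1h4c: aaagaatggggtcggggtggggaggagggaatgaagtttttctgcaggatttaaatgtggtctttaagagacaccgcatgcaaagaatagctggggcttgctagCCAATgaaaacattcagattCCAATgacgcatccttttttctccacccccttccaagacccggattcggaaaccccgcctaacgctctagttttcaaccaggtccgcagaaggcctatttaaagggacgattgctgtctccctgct
Hist1h4c was thus among the few H4 windows with a CCAAT box, and none of the 12 H4 windows held the octamer or the H1 box.

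All 17 promoters in a list of factors for histone gene transcription and 3′ end processing were kept in all 8 libraries, with a median percentile of 95.9. Npat, the coactivator of the histone locus body, ranged from 96.2 to 99.5. Casp8ap2, a further component of that body, ranged from 89.4 to 98.4, and Hinfp, a factor for H4 promoters, from 83.9 to 97.5. Slbp, the stem-loop binding protein, ranged from 78.8 to 97.3. Lsm10 (82.8 to 93.4) and Lsm11 (95.3 to 98.5) encode subunits of the U7 snRNP that cuts the pre-mRNA. Of 14 histone chaperone genes 13 were kept in all 8 libraries (median 90.8), and of 11 replication-independent histone genes, such as H2afz, 7 were (median 88.9). The latter 2 medians lay near the 87.8 to 90.3 of all listed protein-coding promoters. These lists are described by their counts and medians and were not tested against the members.

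After PHx more members were lower than higher at 48 and 72 h relative to the 0 h libraries when all 8 libraries were used. Without the first 48 h library, as many members were higher as lower at 48 h. No single promoter passed a test. A member was counted as higher or lower when both libraries of a time point lay outside both 0 h libraries. The counts were made over the 58 members with an interval in any list and over all 16432 such protein-coding genes. The 3 comparisons share their 0 h libraries and are not independent. With 2 libraries against 2 an exact two-sided permutation test cannot give a p below 0.333, so these counts carry no p-value. Members also varied more between replicates: the median difference between the 2 libraries of a time point was 5.30, 6.54, 9.08 and 9.33 percentile points at 0, 48, 72 and 96 h, against 2.59, 3.83, 3.02 and 3.74 over all genes.

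**Figure D4:**
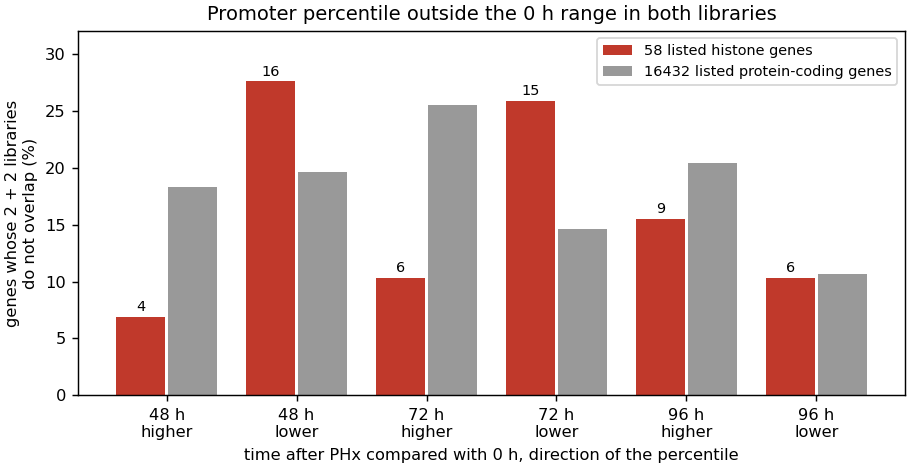
Share of genes (y axis, percent) whose promoter percentile was higher or lower in both libraries of a time point than in both 0 h libraries, for the 58 listed histone genes (red, with the number of genes) and for all 16432 listed protein-coding genes (grey). The red bars exceed the grey ones for lower values at 48 and 72 h and fall below them for higher values at each time.

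At 48 h, 16 of 58 members (27.6%) were lower, against 19.6% of all genes, and 4 (6.9%) were higher, against 18.3%. The 16 genes stood for 13 distinct promoters. The median difference of members was −2.09 percentile points, against 0 over all genes. Other lists went either way at 48 h. Of 8 hepatocyte markers 5 were lower and none higher, of 17 factors for histone gene transcription and 3′ end processing 5 were lower and 1 higher, and of 14 chaperones 3 were lower and 1 higher. Of 11 replication-independent histone genes 5 were higher and 1 lower, and of the 3 other protein-coding genes in the histone loci 2 were higher and none lower. The H4 gene Hist1h4i (chr13:22040636-22041362) had the widest gap, with percentiles of 56.1 and 78.2 at 0 h and of 27.5 and 9.38 at 48 h. In a window of 2 kb its mean difference shrank from −48.7 to −8.68. Hist1h2bm (chr13:21722044-21722567), an H2B gene, had 77.2 and 72.7 (0 h) and 36.1 and 57.8 at 48 h. Hist1h3g (chr13:23535422-23535951), an H3 gene, had 53.7 and 56.2 at 0 h, then no interval in 1 library and 40.2 in the other. Its mean difference of −34.9 was −10.4 in a window of 2 kb and −14.8 without the first 48 h library. These genes were chosen for their gap, so its size is a description. Of the 4 higher members, Hist2h3c2 had 22.8 and 21.1 at 0 h against 38.0 and 64.4 at 48 h. No interval lay within 500 bp of its start in the libraries compared. Hist1h4k had 48.8 and 42.0 against 65.7 and 54.4. Its mean difference of 14.6 was 8.96 without the first 48 h library and 9.22 by percentile of fold enrichment. Hist3h2a had 72.4 and 69.9 against 76.9 and 76.0. By rank both genes overlapped 0 h. At 48 h Hist1h4k had ranks of 40482 and 63573 against 64892 and 60971, and Hist3h2a 27257 and 33464 against 34953 and 31701. By rank within the list in place of percentile, 21 members (36.2%) lay farther from the top, against 24.9% of all genes, and 2 (3.45%) nearer to it, against 15.4%. When 1 of the 4 libraries was left out, so that fewer values had to be separated, 18 to 30 members (31.0% to 51.7%) were lower, against 27.7% to 39.5% of all genes. The highest share, 51.7% against 39.5%, was that without the second 48 h library, and the next, 48.3% against 34.7%, that without the second 0 h library. The lowest, 31.0% against 27.7%, was that without the first 48 h library, where 18 members were lower and 18 higher. When 1 library was left out, the higher members numbered 8 to 18 (13.8% to 31.0%), against 23.9% to 41.2% of all genes.

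At 72 h, 15 members (25.9%) were lower, against 14.6% of all genes, and 6 (10.3%) were higher, against 25.5%. The median difference was −3.63 percentile points for members and 0.494 for all genes. Of the 8 hepatocyte markers 3 were lower and none higher, of the 17 factors 6 were lower and 2 higher, and of the 11 replication-independent histone genes 2 were lower and 3 higher. Hist1h3i (chr13:21782960-21783370), an H3 gene, had percentiles of 67.5 and 60.7 at 0 h, no interval in the first 72 h library and 29.3 in the second. The divergent pair Hist1h2ae and Hist1h2bg had 73.2 and 75.1 (0 h) and 55.9 and 46.7 at 72 h. Its shared stretch (chr13:23571221-23571399) is shown for comparison with the strongest pair, with 2 CCAAT boxes, 1 octamer and 1 TATA box in capitals.
Hist1h2ae and Hist1h2bg: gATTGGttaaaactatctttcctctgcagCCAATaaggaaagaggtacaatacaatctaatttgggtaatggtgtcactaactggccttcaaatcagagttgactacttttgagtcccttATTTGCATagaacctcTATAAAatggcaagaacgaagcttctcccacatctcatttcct
Hist1h4c was lower as well, by 8.98 percentile points on average, and its deposited fold enrichment was 12.32 and 15.04 at 0 h and 7.51 and 7.92 at 72 h, while the median over all listed protein-coding promoters was 10.6 and 11.1 at 0 h and 9.83 and 9.23 at 72 h. Among the higher members, Hist2h3c2 had 22.8 and 21.1 at 0 h against 53.7 and 50.03 at 72 h, and the H4 gene Hist2h4 72.1 and 67.01 against 77.4 and 82.7. Hist1h2ab, an H2A gene, had 27.6 and 45.3 against 59.1 and 71.7, but in a window of 500 bp its mean difference turned from 29.0 to −36.5. By rank, 31 members (53.4%) lay farther from the top, against 27.2% of all genes, and 3 (5.17%) nearer to it, against 15.6%. The 72 h lists were longer than the 0 h lists, which raises percentiles at equal rank. When 1 library was left out, 20 to 32 members (34.5% to 55.2%) were lower, against 24.5% to 28.8% of all genes. The share was lowest without the second 72 h library, at 34.5% against 27.0%, and highest without the first, at 55.2% against 25.04%. The higher members numbered 9 to 16 (15.5% to 27.6%), against 33.1% to 45.7%, with most without the second 72 h library.

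At 96 h the counts of members lay nearer to those of all genes. Of the 58 members 6 (10.3%) were lower, against 10.7%, and 9 (15.5%) were higher, against 20.4%. The median difference was −0.846 percentile points for members and 0.381 for all genes. Of the hepatocyte markers 2 were lower and none higher, of the factors 1 was lower and 5 higher, and of the replication-independent histone genes 1 was lower and 3 higher. Hist1h4h (chr13:23531050-23531519) had 84.5 and 88.0 (0 h) and 76.0 and 77.8 at 96 h. The pair Hist1h2ac and Hist1h2bc had 84.2 and 84.1 against 72.6 and 80.8. The pair Hist1h2bf and Hist1h2ad had 49.5 and 46.5 at 0 h against 65.1 and 71.9 at 96 h. Hist1h2bb and Hist1h3c, which share an interval, had 53.9 and 56.5 against 65.0 and 65.4. For Hist1h3c the mean difference of 10.0 turned to −7.85 in a window of 500 bp. By rank, 14 members (24.1%) lay farther from the top, against 17.2% of all genes, and 2 (3.45%) nearer, against 13.4%. When intervals were ranked by fold enrichment, 2 members (3.45%) were lower, against 7.59%, and 9 (15.5%) higher, against 24%. When 1 library was left out, 15 to 19 members (25.9% to 32.8%) were lower, against 20.1% to 26.0% of all genes, with most without the second 96 h library. The higher members numbered 14 to 23 (24.1% to 39.7%), against 27.9% to 42.2%, with most without the first 96 h library.

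The H4 genes Hist1h4b, Hist1h4c and Hist1h4h were lower than both 0 h libraries at each of the 3 time points, which share those libraries. When intervals were ranked by fold enrichment, none of these genes was lower at 96 h. The share of all genes lower, or higher, at all 3 time points was not computed, so the members named here are a description. By percentile the H4 gene Hist2h4 and the H3 gene Hist2h3c2 were higher than both 0 h libraries at each of the 3 time points. The differences at 48, 72 and 96 h were 8.24, 10.5 and 9.17 percentile points for Hist2h4 and 29.2, 29.9 and 12.9 for Hist2h3c2. By rank both genes lay nearer the top at 48 and 72 h but overlapped 0 h at 96 h, where the lists were longer. Hist2h4 had ranks of 22223 and 34724 at 96 h against 35393 and 34709 at 0 h. Hist2h3c2 had 89006 and 87714 against 97894 and 83013. Hist1h4b (chr13:23757013-23757409) had percentiles of 80.7 and 77.9 (0 h), 66.3 and 69.9 (48 h), 66.6 and 71.9 (72 h), and 77.2 and 73.9 at 96 h. Its log2 difference in quantile-normalised fold enrichment was −0.59 ± 0.17 (SE, limma adjusted p = 0.399) at 48 h, −0.49 ± 0.17 (SE, limma adjusted p = 0.77) at 72 h and −0.14 ± 0.17 (SE, limma adjusted p = 0.998) at 96 h. For Hist1h4c the gap between the groups was 0.522 percentile points at 96 h, against 5.42 at 72 h.

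A linear model (limma) on quantile-normalised log2 fold enrichment, over the 13220 protein-coding genes and 47 members with a promoter interval in all 8 lists, called no gene at an adjusted p under 0.05 at 48, 72 or 96 h (0% of all genes in each). At an unadjusted p under 0.05 it picked 7 members at 48 h (14.9%, against 9.36% of all genes), 12 at 72 h (25.5%, against 5.84%) and 1 at 96 h (2.13%, against 4.7%). All but 1 of these differences, that of Hist2h3c2 at 48 h, were negative. The median log2 difference of members was −0.11, −0.34 and −0.11 at 48, 72 and 96 h, against medians of all genes within 0.01 of 0, and the median standard error was 0.24. Hist1h4i had the smallest adjusted p of the members at 48 h, with a log2 difference of −1.15 ± 0.30 (SE, limma adjusted p = 0.389). The pair Hist1h2ae and Hist1h2bg had it at 72 h, with −1.04 ± 0.27 (SE, limma adjusted p = 0.573). The members picked at 72 h also held Hist1h4c (−0.68 ± 0.18, SE, limma adjusted p = 0.59) and the linker gene Hist1h1b (−0.84 ± 0.23, SE, limma adjusted p = 0.59). The members' median log2 difference at 72 h depended on single libraries. It was −0.11 without the second 72 h library, which had the fewest kept members and no flow-cell identifier in its list name. It was −0.51 without the first 72 h library, −0.40 without the first 0 h library and −0.23 without the second. At 48 h the median was −0.22 and −0.17 without the first and second 48 h library. Without the first and second 0 h library it was −0.27 and −0.18. At 96 h the median was −0.02 and −0.14 without the first and second 96 h library. Without the first and second 0 h library it was −0.23 and 0.002. Each of these fits leaves 1 library in a group, so its p-values rest on the spread of the other groups. With −log10 p in place of fold enrichment and all 8 libraries, limma picked 7 members at 72 h (14.9%, against 8.23%) at an unadjusted p under 0.05.

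Most regions within the histone loci lay near the GENCODE starts of histone genes. The loci, 439.8 kb in all, held 27 to 43 kept intervals in a library, promoter intervals included. This was 6.14 to 9.78 per 100 kb, against 1.83 per 100 kb of the genome. Merging kept intervals of the 8 libraries gave 73710 consensus regions, of which 56 lay in the loci. Of these, 43 lay within 1 kb of a histone gene start and 13 elsewhere. Of the 56 regions 14 (25%) were present in all 8 libraries, against 38.7% of all regions.

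**Figure D5:**
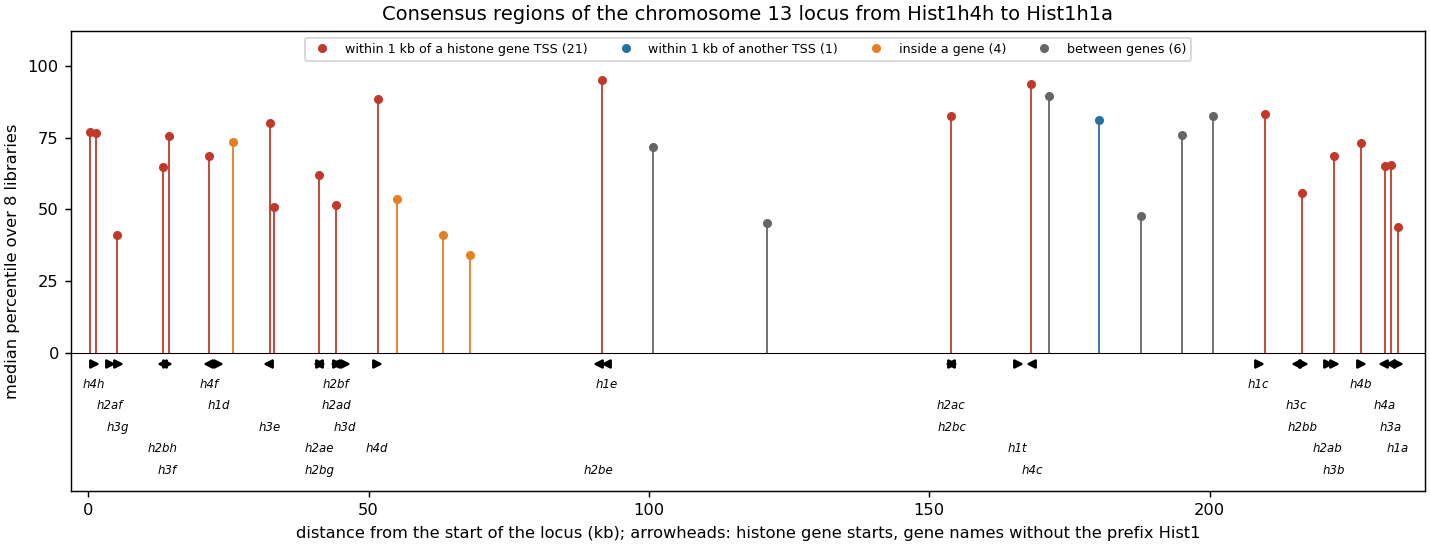
Consensus regions of the largest histone locus by distance from its start (x axis, kb) and median percentile over the 8 libraries (y axis), coloured by position relative to genes, with arrowheads for the starts and directions of the 29 histone genes below the axis. The 2 strongest regions between genes, with medians of 89.6 and 82.6, lie between Hist1h4c and Hist1h1c.

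The strongest region elsewhere lay between genes at chr13:23701195-23701521, 2741 bases from the start of Hist1h4c. It was kept in all 8 libraries, with percentiles of 81.2 and 90.4 (0 h), 91.1 and 88.8 (48 h), 79.1 and 94.5 (72 h), and 83.8 and 91.1 at 96 h. The groups overlapped. The next was an intergenic region at chr13:23730417-23730920, 7888 bases from Hist1h1c, with 92.3 and 92.4 (0 h), 74.9 and 67.1 (48 h), 85.7 and 90.9 (72 h), and 76.4 and 79.6 at 96 h. All 6 libraries after PHx lay below both 0 h libraries there, but the share of all regions with this pattern was not computed. The region at chr13:23709442-23711181 held the start of Hfe, which encodes a regulator of iron uptake made in hepatocytes, at percentiles of 77.6 to 88.6. A further intergenic region at chr13:23724680-23725550 had a median of 75.7 and ranged from 56.7 to 79.9. The fifth was the one inside Hist1h1d described above, which counts as elsewhere by GENCODE starts and as a promoter by its RefSeq start.

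Regions that entered or left the kept intervals were rare. At 48 h, 2 of 56 regions (3.57%) were gained, present in both 48 h libraries and in neither 0 h library, against 2.65% of all regions. They lay at chr13:23717511-23718298, between genes, and at chr13:23761007-23761805, at Hist1h4a and Hist1h3a. These 2 genes already had another kept promoter interval in both 0 h libraries. Lost at 48 h were 3 regions (5.36%, against 3.5%), at Hist1h2bm, Hist1h3i and Hist2h2aa1. The last lay 946 bases from the start of Hist2h2aa1. The promoter percentiles of that gene overlapped, with 51.3 and 70.4 at 0 h and 49.4 and 54.9 at 48 h. At 72 h none was gained, against 2.88%, and 4 (7.14%) were lost, against 2.74%, at Hist1h1b, Hist1h3i, Hist1h2ae with Hist1h2bg, and Hist1h2bh with Hist1h3f. At 96 h none was gained, against 2.23%, and 1 (1.79%) was lost, against 2.42%, at Hist1h1b. When 1 library was left out, 3 to 6 regions were gained and 4 to 8 lost at 48 h, or 5.36% to 10.7% and 7.14% to 14.3%, against 4.53% to 7.89% and 6.57% to 8.75% of all regions. At 72 h, 0 to 2 were gained, at most 3.57%, against 4.89% to 7.77% of all regions, and 6 to 11 were lost, or 10.7% to 19.6% against 5.52% to 8.02%, with most lost without the first 72 h library. At 96 h, 0 to 3 were gained, at most 5.36%, against 4.07% to 7.76%, and 3 to 7 were lost, or 5.36% to 12.5% against 5.25% to 7.38%.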

How the data were processed

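Peak lists of 8 bulk ATAC-Seq libraries were analysed, 2 from undamaged liver and 2 from each time after PHx. Per the study's methods the authors used the ENCODE ATAC-Seq pipeline, with trimmed reads mapped to mm10 by Bowtie2, duplicates removed and peaks called by MACS2; versions are not given in the sources used here. Per the list names, tags were shifted for the transposase, a lenient p threshold and a cap on peak number were set, and replicates were not pooled. For each peak the deposited lists hold a fold enrichment against the local background, a display score, and −log10 values of p and of q. The authors' score and −log10 q entered no comparison. Depth is unknown, and no interval or floor was computed.

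Lines of 1 interval were collapsed to the highest −log10 p, and intervals were ranked within each list. The strongest 50000 were kept for presence. No interval ran past a chromosome end of GRCm38.p6. Starts came from GENCODE M21 basic, promoter windows from RefSeq (GRCm38.p6). A locus joined members at most 100 kb apart, with 1 kb at each end. Differences were tested with limma 3.58.1 in R 4.3.3 (all 8 libraries, time as the only term, Benjamini-Hochberg over all genes), since the lists hold no counts; the script was tested on simulated data. Other steps used Python 3.11.15 with pandas 2.3.3.

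Members, lists and tests were chosen with earlier results of these data known. Named with values were the 2 highest and lowest members of each class by median percentile, the Hist3 and Hist4 genes, the 3 widest gaps per comparison and direction, unlisted members, 6 regulators, the 5 strongest regions elsewhere and regions gained or lost. Hist1h4b, Hist1h4c at single time points, the limma examples and the fourth region lost at 72 h were named after seeing them. Alternatives covered the number kept, windows of 500 bp and 2 kb, rank or fold enrichment, normalisation, a replicate block and leaving out each library. The second 72 h list carries no flow-cell identifier in its name, unlike the other 7.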

Additional observations from a re-analysis of the deposited data

Results flagged for a closer look

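Hist1h4k and Hist1h4j, both H4 genes of the first chromosome 13 block, differed in opposite directions at 2 time points relative to the same 0 h libraries. Hist1h4k was 14.6 percentile points above 0 h at 48 h, in both libraries (8.96 without the first 48 h library and 9.22 by fold enrichment), and 25.1 points below it at 72 h (a difference of −25.1), where the second library had no interval. Hist1h4j was below 0 h in both 72 h libraries, with a difference of −5.88 points, and above it in both 96 h libraries, with a difference of 2.24 points. The 96 h lists were longer than the 0 h lists, and on other scales Hist1h4j was not higher at 96 h. Its deposited fold enrichment was 7.88 and 7.25 at 96 h and 8.26 and 8.65 at 0 h, its ranks were 38106 and 33198 against 35092 and 30673, and its normalised log2 difference (limma) was −0.04 ± 0.21 (SE). The difference between the time points was not tested for either gene.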

How the results depend on the processing

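The replicate numbers were not taken to pair the libraries. The deviations of same-numbered libraries from their group means correlated between −0.109 and 0.165 over the 6 pairs of time points. With the replicate number as a block limma called 0 members at each time point, and with the 0 h numbers exchanged for the 72 h comparison, a pairing added after the data were seen, it again called 0. All other alternatives to the model, the −log10 p in place of fold enrichment, median centring, absent intervals set to the lowest value of their list, a 500 bp window and leaving out each of the 8 libraries, also gave 0 called members at 48, 72 and 96 h. With absent intervals set to the lowest value, limma called 21, 22 and 14 of 15515 genes at these times, none of them among the 56 members tested. The smallest exact p of 0.333 for 2 libraries against 2 and the unknown depth limit what the counts can show.

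The count of members with a kept promoter interval in all libraries, 18, was 3 with 25000 intervals kept, 47 with all deposited intervals and 18 to 27 when 1 library was left out. It stayed within 1.5 times with a 500 bp or 2 kb window, the 5′ end of the gene only, or RefSeq starts added. By rank in place of percentile, higher members numbered 2 (48 h), 3 (72 h) and 2 at 96 h, and lower members 31 (72 h) and 14 at 96 h. A 2 kb window gave 8 higher members at 48 h (12.7% of 63, against 18.7% of all genes at that window), and ranking by fold enrichment 2 lower members at 96 h, none of them among the 6 found by percentile. Leaving out 1 library gave 8 to 18 higher and 18 to 30 lower members at 48 h, 9 to 16 and 20 to 32 (72 h), and 14 to 23 and 15 to 19 at 96 h. These counts ask less of the data, since 1 library then stands for its time point.

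Regions gained at 48 h numbered 0 with 25000 intervals kept and 1 when at least 50% of a region had to be covered. Regions gained at 72 h numbered 1 with all deposited intervals, and those lost at 96 h 2 with 25000 intervals and 3 with 50% coverage. Leaving out 1 library gave 3 to 6 gained and 4 to 8 lost at 48 h, 0 to 2 and 6 to 11 (72 h), and 0 to 3 and 3 to 7 at 96 h. Of 133 values of the 19 named differences under alternatives, 131 did not reverse. This count is no measure of stability. The genes were chosen for groups that do not overlap, so leaving out 1 library could not reverse a difference. Rank was not among the alternatives for them, and a difference of 0 was counted as not reversed, as for Hist2h3c2 with a 500 bp window. With a 500 bp window Hist1h2ab at 72 h turned to −36.5 and Hist1h3c at 96 h to −7.85 percentile points, and the cause was not tested. Adding RefSeq starts changed no count by more than 1.5 times.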
